A study of Mus musculus with 6 samples.

Results

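The genes 2210409E12Rik, Gm33309, Gm39663 and Calr3 were 4 of the 35976 gene symbols counted in cultured mouse dorsal root ganglion (DRG) neurons. They were selected on the readout itself, because their counts rose strongly after HC-HA/PTX3 in all 3 same-numbered pairs of cultures and because little is known of them. One is annotated as a transcribed processed pseudogene (2210409E12Rik), Gm33309 and Gm39663 are long non-coding RNA genes, and Calr3 codes for a protein. All values of these 4 genes in this contrast are therefore a description and carry no test.

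HC-HA/PTX3 is a hyaluronan-based matrix complex obtained from human amniotic membrane, named for its components, which are a serum protein heavy chain (HC), hyaluronan (HA) and the pattern recognition protein pentraxin 3 (PTX3). Neurons came from the lumbar DRGs of wildtype C57BL/6 mice of both sexes, aged 2 to 3 months, and were grown with nerve growth factor and glial cell line-derived neurotrophic factor. Treatment began 24 h after plating and lasted 24 h, with vehicle in 3 cultures and 15 µg/mL HC-HA/PTX3 in the other 3. RNA was sequenced in bulk, with total counts of 42516054, 42617496 and 54117547 in vehicle replicates 1, 2 and 3, and 37998071, 37434266 and 38420247 in the HC-HA/PTX3 replicates.

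A processed pseudogene is a copy of a messenger RNA that was written back into the genome, usually without a promoter of its own, and some such copies are nevertheless transcribed. Long non-coding RNAs are transcripts with no recognised protein product, and most genes that carry only a Gm number or a Rik clone name have no assigned function. Calreticulin 3 is a relative of calreticulin, a calcium-binding chaperone of the endoplasmic reticulum, and is known from the testis, where it takes part in the folding of sperm surface proteins.

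The pseudogene 2210409E12Rik lies on the plus strand of chromosome 11 (mm10, the same coordinates as GRCm38). RefSeq places it at chr11:88972638-88973014, and GENCODE gives it 1 exon of 346 bases. Its sequence resembles the genes of elongin B, a subunit of the elongin transcription elongation complex and of ubiquitin ligases. Over 271 aligned bases it was 95.2% identical to the coding transcript of Elobl, an elongin B-like gene that lies 5725 bases away on the other strand and is counted under its older symbol Gm15698. Against the longest Elobl transcript the identity was 90.1% over 332 aligned bases. Over 344 aligned bases it was 76.7% identical to a transcript of Elob itself, counted under its older symbol Tceb2. The first 197 bases of the pseudogene are also an exon of a Coil transcript in GENCODE, whereas Coil starts 921 bases downstream of the pseudogene in RefSeq. Bases 198 to 278 of the pseudogene, chr11:88972854-88972934, are shown beside bases 220 to 300 of the Elobl coding transcript, as a closely alike stretch. How well reads can be placed between these copies was not tested. The capitals mark the 2 of 81 bases that differ.
2210409E12Rik: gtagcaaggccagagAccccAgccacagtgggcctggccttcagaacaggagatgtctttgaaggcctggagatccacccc
Elobl: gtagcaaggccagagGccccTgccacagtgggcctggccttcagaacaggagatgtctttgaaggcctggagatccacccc

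In vehicle replicates 1, 2 and 3, 2210409E12Rik had 39, 46 and 38 counts, and in the HC-HA/PTX3 replicates it had 267, 163 and 140. The groups did not overlap, although the treated libraries were smaller than the vehicle libraries. As TMM-scaled CPM (counts relative to library size), the vehicle cultures lay at 0.974, 1.07 and 0.679 and the treated cultures at 7.19, 4.30 and 3.55 (means 0.908 ± 0.204 and 5.02 ± 1.92, SD over 3 cultures per group). Among the treated cultures replicate 1 was the highest. The change per same-numbered pair was 2.83, 1.96 and 2.31 on the log2 scale, with a fitted log2 fold change of 2.43. The 95% counting intervals were 2.40 to 3.41 in pair 1 and 1.53 to 2.51 in pair 2, so that these pairs overlapped by little, and 1.86 to 2.95 in pair 3. These exact intervals cover counting error only.

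Gm33309 is a minus-strand gene at chr3:101727135-101737539 in RefSeq, and GENCODE M21 lists no gene of that name. Its raw counts were 43, 82 and 68 in the vehicle cultures and 316, 257 and 245 in the treated cultures. Here too every treated culture lay above every vehicle culture. The levels were 1.07, 1.91 and 1.21 CPM in the vehicle cultures and 8.51, 6.78 and 6.22 CPM in the treated cultures (means 1.40 ± 0.447 and 7.17 ± 1.20, SD over 3 cultures per group). The pair changes spread most of the 4 genes, at 2.93, 1.80 and 2.31 (log2), and the fitted log2 fold change was 2.36. Pair 1 had both the lowest vehicle level and the highest treated level, and its counting interval of 2.52 to 3.48 did not reach that of pair 2, 1.46 to 2.21.

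Gm39663, also on the minus strand and also listed in RefSeq only, lies at chr1:72727945-72737799. It had 112, 69 and 116 counts with vehicle and 347, 250 and 285 with HC-HA/PTX3. The groups were again apart, and replicate 2 was the lowest in each. In CPM the vehicle cultures had 2.80, 1.61 and 2.07 and the treated cultures 9.35, 6.60 and 7.24 (means 2.16 ± 0.600 and 7.73 ± 1.44, SD over 3 cultures per group). The pair changes were 1.72, 2.01 and 1.78, with counting intervals that overlapped in all 3 pairs, and the fitted log2 fold change was 1.85.

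Calr3 lies on the minus strand at chr8:72424176-72443819 in RefSeq. Its counts were 142, 156 and 140 with vehicle and 476, 455 and 343 with HC-HA/PTX3. The lowest treated culture thus had more than any vehicle culture. The levels were 3.55, 3.63 and 2.50 CPM in the vehicle cultures and 12.8, 12 and 8.71 CPM in the treated cultures (means 3.23 ± 0.630 and 11.2 ± 2.18, SD over 3 cultures per group). Replicate 3 was the lowest culture in each group, and the pair changes were the closest of the 4 genes at 1.84, 1.71 and 1.78 (log2), around a fitted log2 fold change of 1.79.

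**Figure D1:**
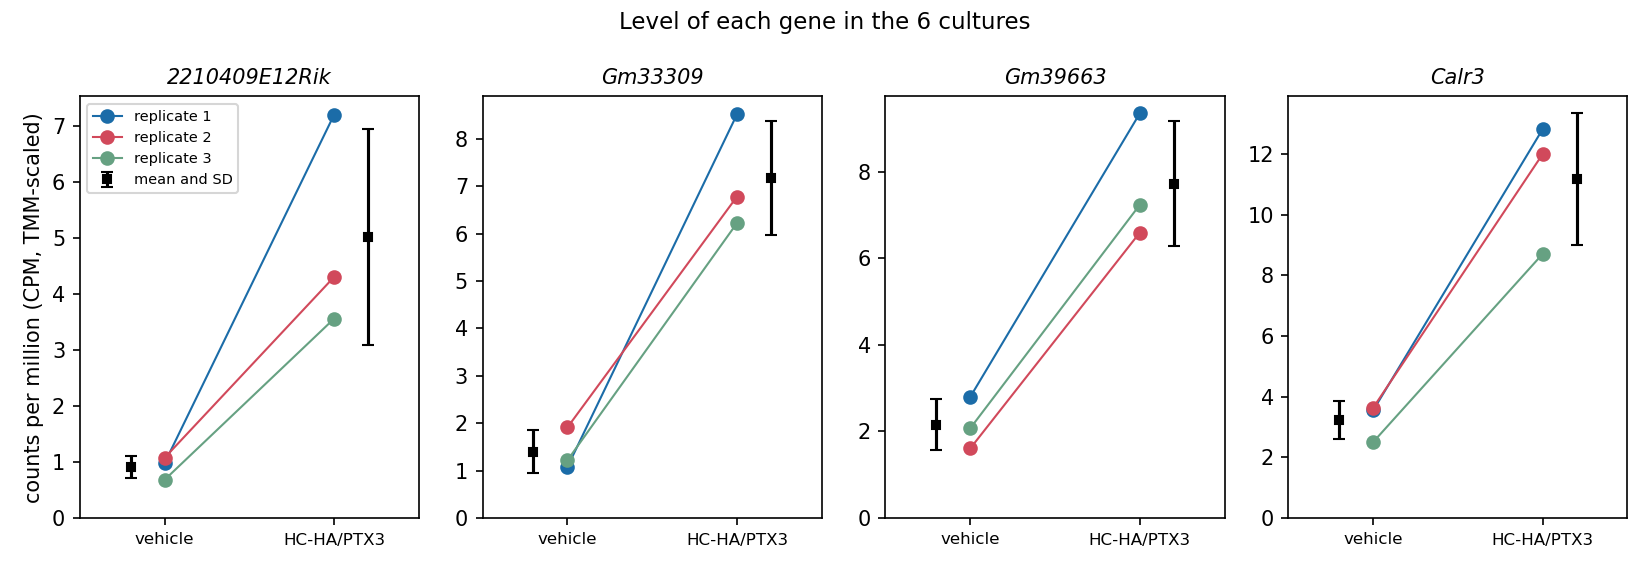
Level of each gene in CPM in the 3 vehicle and 3 HC-HA/PTX3 cultures, with lines joining cultures of the same replicate number and black squares giving each group's mean and SD (n = 3). In each panel the treated cultures lie above the vehicle cultures, and replicate 1 is the highest treated culture.

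All 4 genes passed the filter on low counts and had at least 38 counts in every culture, so that none passed this filter through the treated group alone. All 4 had treated cultures wholly above the vehicle cultures, as had 9.44% of the 18277 genes tested. They were also among the 607 genes called higher, which were 3.32% of those tested, while 984 genes (5.38%) were called lower. A call required an adjusted p below 0.05 and an absolute log2 fold change above 0.5 in edgeR's quasi-likelihood test with the replicate number as a block. Since the members were selected on this contrast, nothing is read from these counts. Without vehicle replicate 1 the test called 283 genes higher, and without HC-HA/PTX3 replicate 1 it called 248 higher and 647 lower. Fitted with no replicate block, edgeR called 0 genes higher and 0 lower, so that the 4 genes were not called either.

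Among the 13576 genes whose mean level reached 1 log2 CPM, the 4 genes held the first 4 places by the smallest of their 3 pair changes, from 1.96 (2210409E12Rik) to 1.71 (Calr3). The next were Scara5, a scavenger receptor gene, at 1.54 and LOC101055907 at 1.43. Scara5 had 90, 104 and 29 counts with vehicle and 357, 271 and 156 with HC-HA/PTX3, and its groups did not overlap. The level is a mean over all 6 cultures. 2210409E12Rik, Gm33309 and Scara5 were below it in vehicle, at means of 0.908, 1.40 and 1.73 CPM, and reached it only through the treated cultures. The description of the 4 genes as the largest rises holds only above that level and by this measure. By fitted log2 fold change Scara5, at 2.10, stood above Gm39663 and Calr3. Of the 14 tested genes with a smallest pair change no lower than that of Calr3, 10 had a lower mean level. The highest of them was LOC105246186, with 11, 6 and 17 counts with vehicle and 90, 48 and 96 with HC-HA/PTX3, and a smallest change of 2.81. It passed the low-count filter only with the help of the treated cultures. Of the 12 largest fitted rises at or above 1 log2 CPM that passed the test without overlap, those below these 5 genes ran from 1.49 (Serpinb5, a serpin) through LOC101055907, Procr (the endothelial protein C receptor), Marveld3 (a tight junction protein), Prrg2 and Slc39a10 (a zinc importer) to 1.38 (Cmah). LOC101055907, Marveld3 and Cmah, at vehicle means of 1.25, 1.66 and 1.52 CPM, also reached the level only through the treated cultures.

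**Figure D2:**
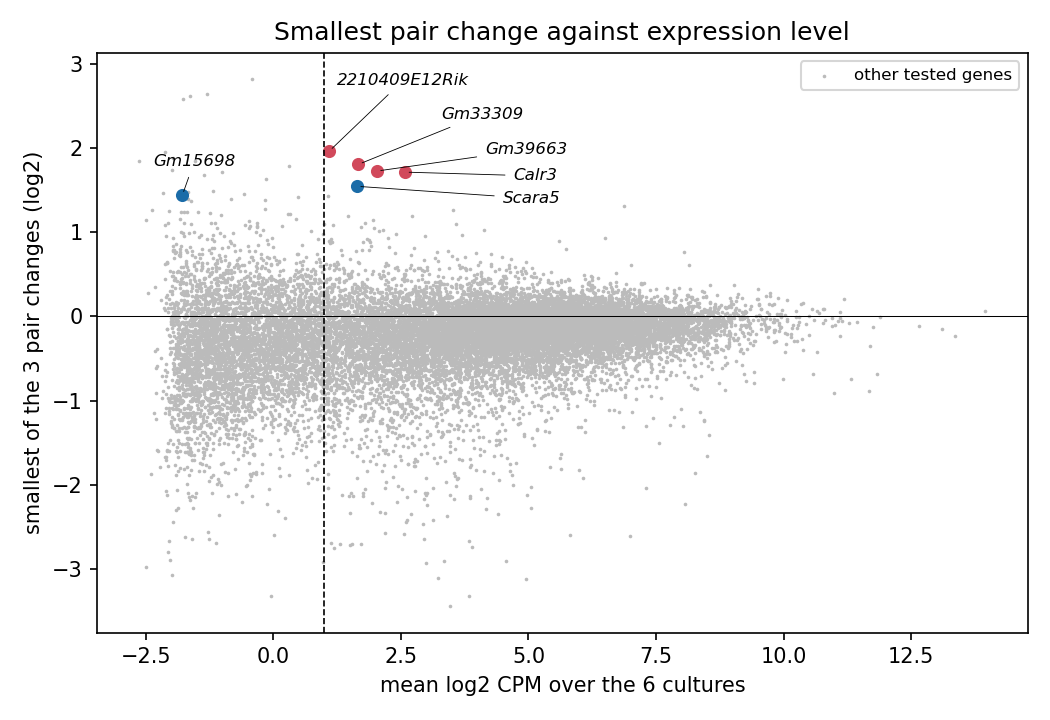
Smallest of the 3 pair changes (log2) against the mean log2 CPM over the 6 cultures for each of the 18277 tested genes, with the 4 genes in red, Scara5 and Gm15698 in blue, and a dashed line at 1 log2 CPM. Right of the line the 4 genes lie highest, from 1.71 to 1.96, while several genes of lower level lie above them on the left.

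Of the 8 other genes with a Gm number or a Rik name that had the largest smallest pair change at that level, the fitted log2 fold changes ran from 1.02 to 1.36. They were picked by their rise in this contrast and are a description without a test. Gm16976 led them with smallest change 1.10. It had 97, 88 and 133 counts in the vehicle cultures and 208, 169 and 208 in the treated cultures, without overlap. The others were 2210008F06Rik, 1700024P16Rik, 1110032F04Rik, Gm40324, Gm34350, Gm30515 and Gm5486. Of these, 2210008F06Rik, Gm40324 and Gm30515 had vehicle means of 1.39, 1.39 and 1.45 CPM, below that level. They reached it only through the treated cultures.

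In the fit of all 6 cultures with the replicate block, genes with provisional symbols were called higher more often than lower, whereas the reverse held for other genes. Of 1943 tested genes named Gm followed by digits, 153 (7.87%) were called higher and 33 (1.70%) lower, with a median log2 fold change of 0.17. Of 890 tested genes ending in Rik, 55 (6.18%) were called higher and 30 (3.37%) lower. The 502 tested LOC genes gave 29 (5.78%) and 6 (1.20%). Among the remaining 14942 genes, 370 (2.48%) were called higher and 915 (6.12%) lower, with a median of -0.02. Among genes whose mean level reached 1 log2 CPM, 49 of 409 Gm genes were called higher (12%) and 15 lower. The remaining genes gave 284 and 825 of 12616. That mean includes the treated cultures, so that a rise helps a gene to reach the level. The shares differed between fits, and a fit without 1 culture rests on 2 pairs instead of 3, so that it cannot show dependence on a single culture. Without HC-HA/PTX3 replicate 1 the shares called higher were 1.77% (Gm), 2.54% (Rik) and 1.10% (LOC), against 1.18% of the remaining genes, and without vehicle replicate 1 they were 2.52%, 2.80% and 1.52%, against 1.30%. Without vehicle replicate 3 they were 3.71%, 3.27% and 2.07%, against 1.96%, and without HC-HA/PTX3 replicate 3 they were 3.74%, 3.30% and 1.85%, against 2.13%. Without HC-HA/PTX3 replicate 2 the LOC share was 9.49%. DESeq2 gave 2.88%, 2.58% and 1.99%, against 1.81%, and edgeR with no replicate block called 0 genes in any class. ComBat-seq followed by limma-trend gave higher shares, 16.6%, 11.1% and 10.6%, against 3.60%. The edgeR fit with no low-count filter gave 3.06%, 3.85% and 3.89%, against 2.24%. These refits of the shares were chosen after seeing the data, and the classes were not tested against each other.

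**Figure D3:**
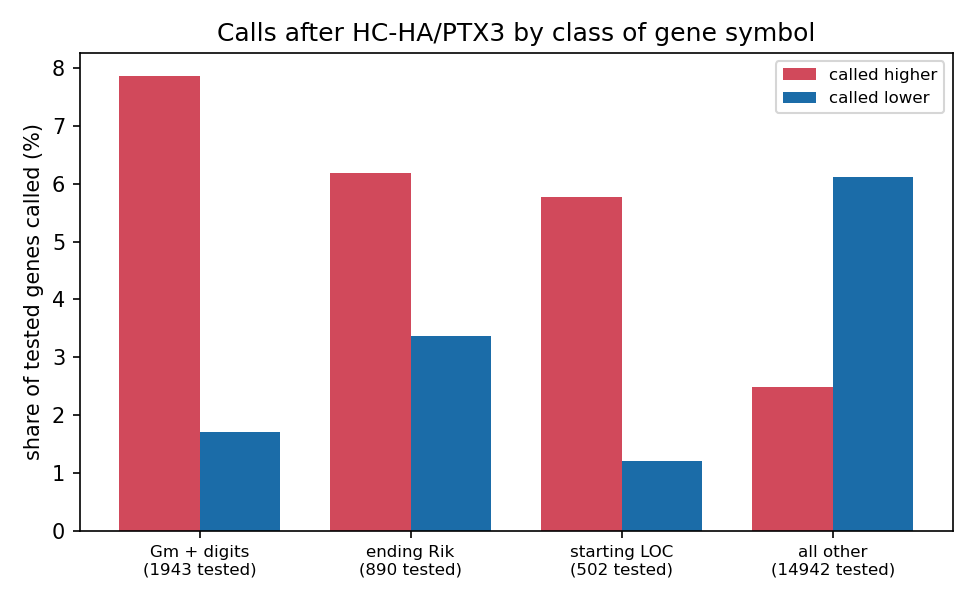
Percentage of tested genes called higher (red) and lower (blue) after HC-HA/PTX3 in 4 classes of gene symbol, with the number tested under each, in the edgeR fit of all 6 cultures with the replicate block. In this fit the 3 provisional classes have the taller red bars, 7.87%, 6.18% and 5.78%, and all other genes have the taller blue bar, 6.12%.

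The neighbours of the 4 genes were not used in selecting them. The 3 nearest genes on either side and any overlapping gene came to 24 genes, of which 20 had a count row and 13 were tested. Their median log2 fold change was 0.12, beside -0.01 over all tested genes, and 1 of the 13 was called, as higher, where 3.32% of all tested genes were called higher and 5.38% lower. That gene was Gm15698, the Elobl gene whose sequence 2210409E12Rik resembles. It had 5, 5 and 6 counts with vehicle and 25, 15 and 15 with HC-HA/PTX3. Each treated culture lay above each vehicle culture, and the fitted log2 fold change was 2.0 (higher in 3 of 3 pairs). It passed the low-count filter only through the treated cultures, so that it would not have been tested had it stayed at the vehicle level. Its values are therefore a description only, and nothing is read from the count of 1 in 13. Reads of Gm15698 and 2210409E12Rik may have been exchanged between these similar copies, and how multiply mapped reads were counted is not given in the sources used here. The call was lost without vehicle replicate 1, without HC-HA/PTX3 replicate 1 and in the fit with no replicate block. The log2 fold change was 1.77, 1.77 and 2.03 in these 3 fits. The other close relative, Tceb2, which encodes elongin B, had 105 ± 4.58 CPM in vehicle and 107 ± 8.71 CPM in treated cultures (SD over 3 cultures per group), a log2 fold change of 0.02 (95% interval -0.11 to 0.16).

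Coil, which encodes the Cajal body protein coilin and shares an exon with the pseudogene in GENCODE, had 935, 1027 and 1776 counts with vehicle and 835, 971 and 1359 with HC-HA/PTX3. Its groups overlapped, and its log2 fold change was 0.06 (95% interval -0.13 to 0.24). Scpep1, a serine carboxypeptidase gene, and Trim25, a ubiquitin ligase gene, had log2 fold changes of 0.47 and 0.39. Their adjusted p-values of 0.00426 and 0.0165 (edgeR, Benjamini-Hochberg) were below 0.05, but their changes were under the fold threshold and neither was called. Without replicate 2 of either group both were called, and Scpep1 was also called without replicate 1 of either group.

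Around Gm33309 the closest gene lies 59834 bases away. Among the tested neighbours Mab21l3 was at 0.56 and Slc22a15 at -0.05 (log2 fold change), and neither was called. Mab21l3 had only 14, 29 and 26 counts with vehicle and 20, 28 and 35 with HC-HA/PTX3, and its groups overlapped. The lncRNA genes on either side, Gm33215, Gm33265 and Gm33381, had at most 4 counts in any culture. Near Gm39663, Gm30788 and Gm30847 had at most 3 counts in any culture, and the tested genes Rpl37a, a ribosomal protein gene, and Igfbp2, an insulin-like growth factor binding protein gene, had log2 fold changes of 0.12 and -0.28 without a call. The overlapping gene Gm51632 had no matching count row.

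Calr3 starts head to head with 1700030K09Rik, with 9 bases between the gene ends in GENCODE. This partner on the plus strand had 214, 287 and 370 counts with vehicle and 238, 221 and 283 with HC-HA/PTX3. Its groups overlapped, and its log2 fold change was 0.06 (95% interval -0.24 to 0.37). The neighbours Klf2, Eps15l1 and Cherp had log2 fold changes of 0.15, -0.10 and -0.17, and none was called. The lncRNA gene Gm46043 overlaps Calr3 on the opposite strand and had no matching count row. Whether reads were counted by strand is not given in the sources used here, so that reads from Calr3 and from this antisense gene cannot be told apart.

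**Figure D4:**
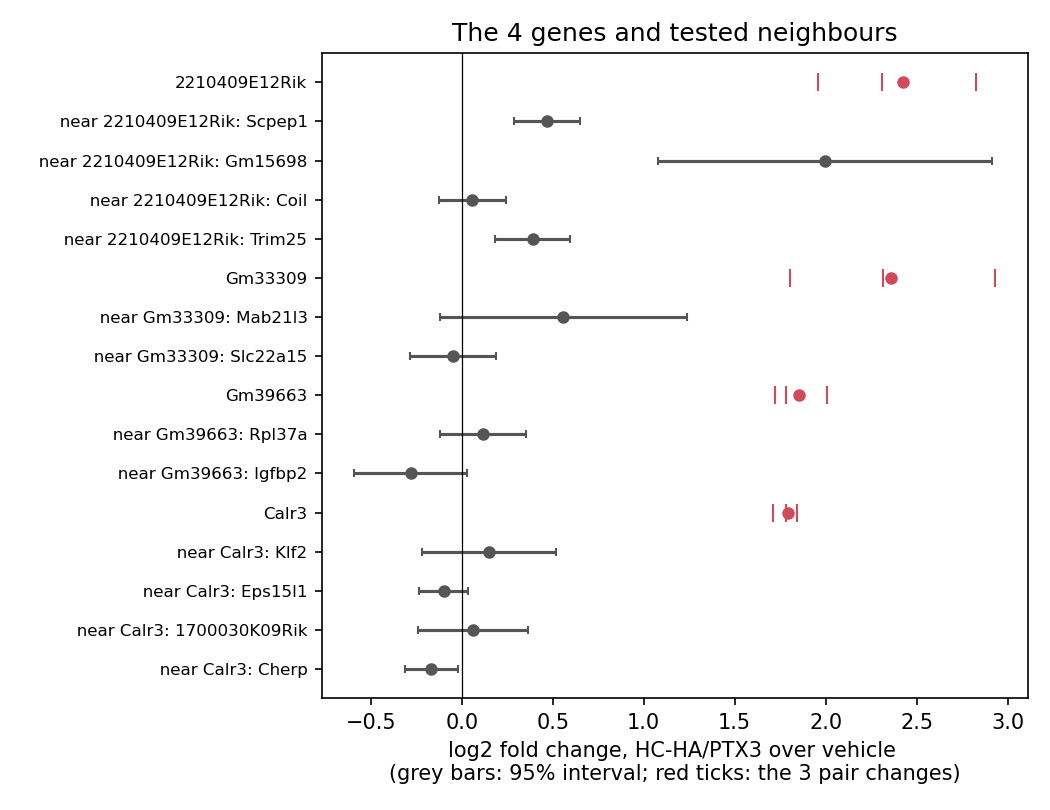
Log2 fold change (HC-HA/PTX3 over vehicle) of the 4 genes in red, with ticks for their 3 pair changes, and of 12 of their 13 tested neighbours in grey, with 95% intervals from the edgeR fit with the replicate block. Gm15698, at 2.0, is the only neighbour shown in the range of the 4 genes, and the other 11 lie between -0.28 and 0.56. Gm15698 was tested only because it was high in the treated cultures, and its interval is a description.

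Promoter windows of 300 bases were listed by RefSeq (GRCm38.p6) for Gm33309, Gm39663 and Calr3, with a pair of windows for Calr3. The window of Gm33309 matched those of 14 other genes in the same orientation over 115 to 250 aligned bases, at 80.0% to 88.8% identity. Of these, 13 had a count row and 3 were tested, and 1 of the 3, Gm34548, was called higher. Gm34548 passed the low-count filter only through the treated cultures, so that it was tested only because it was high there and the count of 1 in 3 is no support for a relation. Its window is shown under that of Gm33309 since both genes were among those called higher, with the 172 identical bases of the alignment in capitals. Gm33309 (chr3:101737490-101737789) and Gm34548 (chr3:104680579-104680878) are both on the minus strand, and each sequence is written in the direction of transcription.
Gm33309: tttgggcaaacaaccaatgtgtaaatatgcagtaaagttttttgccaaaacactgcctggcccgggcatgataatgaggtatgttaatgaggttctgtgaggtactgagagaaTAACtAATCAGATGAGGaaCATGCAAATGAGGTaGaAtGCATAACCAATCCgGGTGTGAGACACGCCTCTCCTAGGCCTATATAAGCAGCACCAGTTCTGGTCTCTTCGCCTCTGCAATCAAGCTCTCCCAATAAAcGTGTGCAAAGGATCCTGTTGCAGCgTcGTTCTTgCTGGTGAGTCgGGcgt
Gm34548: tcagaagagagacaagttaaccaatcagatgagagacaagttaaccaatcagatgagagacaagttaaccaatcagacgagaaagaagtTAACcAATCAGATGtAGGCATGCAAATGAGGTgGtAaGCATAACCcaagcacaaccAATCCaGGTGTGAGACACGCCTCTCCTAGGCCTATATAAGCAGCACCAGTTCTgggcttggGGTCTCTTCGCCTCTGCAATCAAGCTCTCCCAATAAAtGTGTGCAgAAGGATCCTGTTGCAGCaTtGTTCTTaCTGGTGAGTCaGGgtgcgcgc

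Gm34548, an lncRNA gene named after its values were seen, had 2, 3 and 6 counts with vehicle and 15, 13 and 31 with HC-HA/PTX3. The groups did not overlap at these low counts, and the fitted log2 fold change of 2.71 is a description only. The other tested genes with such a window were not called. They were LOC108168762, with 679, 854 and 408 counts with vehicle and 765, 629 and 820 with HC-HA/PTX3, and 2310047D07Rik, with 1, 15 and 11 and then 12, 10 and 16. The 10 untested genes together had 8, 8 and 8 counts with vehicle and 12, 5 and 9 with HC-HA/PTX3. A like stretch in the opposite orientation lay in the windows of 14 further genes, of which 12 had a count row and 1, Gm35454, was tested. It had 5, 3 and 6 counts with vehicle and 12, 16 and 12 with HC-HA/PTX3 and was called higher, but it too passed the filter only through the treated cultures. This search was chosen after the values were known, and no relation between window and change was tested.

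The window of Gm39663 (chr1:72737750-72738049, minus strand) matched no other window over 100 bases or more, and is given as the contrasting case.
Gm39663: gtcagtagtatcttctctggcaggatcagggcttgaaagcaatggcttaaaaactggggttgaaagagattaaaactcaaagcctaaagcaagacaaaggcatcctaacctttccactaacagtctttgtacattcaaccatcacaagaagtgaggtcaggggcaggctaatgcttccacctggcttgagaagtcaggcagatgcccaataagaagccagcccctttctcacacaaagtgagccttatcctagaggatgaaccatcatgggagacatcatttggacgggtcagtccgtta

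Of 9 short motifs searched on both strands, CCAAT was the only one found in all windows of the 3 genes. It occurred 3 times in Gm33309 and once in Gm39663 and in each window of Calr3, and was present in 37.4% of the 32851 windows of the table. TGCNCNC was found once in Gm33309 and in each window of Calr3, against 51.0% of all windows. TATAAA (13.6%), GGGCGG (35.7%), CACGTG (7.15%), TGACGTCA (1.79%), TGANTCA (7.81%), TGATGNAA (3.97%) and CCACG (32.8%) were absent from the windows of the 3 genes. A match is an exact string of letters, with N for any base, and was not tested as a binding site. Variants of these strings were not searched, so that an absence covers the exact string only.

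Of the relatives of Calr3, Calr, Canx and Clgn were more abundant per length and Calr4 less. None of these 4 was called, beside 3.32% of all tested genes called higher and 5.38% called lower. Nothing is read from so small a count. Per kilobase of GENCODE exon, Calr3 stood at 1.64 ± 0.321 CPM in vehicle and 5.70 ± 1.11 CPM in treated cultures (SD over 3 cultures per group). On the same scale Calr, the general calreticulin, stood at 261 ± 76.3 and 226 ± 66.7 CPM, and Canx, the membrane-bound calnexin, at 114 ± 16.9 and 125 ± 16.9 CPM. Calr3 thus had 0.631% of the level of Calr in the vehicle cultures and 2.53% in the treated cultures. Clgn, the testis-type calmegin, had 18.2 ± 2.04 and 20.8 ± 1.39 CPM per kilobase, and Calr4 had 0.343 ± 0.241 and 0.395 ± 0.186. Between the groups, the log2 fold changes were -0.21 for Calr, 0.13 for Canx, 0.19 for Clgn and 0.31 for Calr4, with adjusted p-values of 0.0606, 0.176, 0.132 and 0.534 (edgeR, Benjamini-Hochberg).

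Other folding genes of the endoplasmic reticulum gave 0 calls among the 27 tested of 30 listed symbols, with a median log2 fold change of -0.04, beside the 3.32% called higher and 5.38% called lower of all tested genes. Hspa5 (BiP) was at -0.16, Hsp90b1 (Grp94) at -0.04 and Pdia3, a disulfide isomerase that works with calreticulin, at 0.01. Dnajb9, a co-chaperone of BiP, was at 0.37 (adjusted p = 0.00684 in edgeR after Benjamini-Hochberg adjustment), below the fold threshold. Dnajc3, another co-chaperone, at -0.29, and Manf, a secreted stress protein, at -0.24, were also below it in size, with adjusted p-values of 0.0132 and 0.0468 in the same edgeR fit. Creld2, at -0.34, was the only one of the list to be called in any refit, which was that without replicate 2 of either group.

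Among other sperm genes 0 were called higher. Of 31 genes known from spermatids or sperm, 22 had under 10 counts in every culture, 7 were tested and 1 was called, as lower, beside 5.38% of all tested genes called lower. That gene was Acr, the acrosomal protease acrosin, with 75, 62 and 108 counts with vehicle and 27, 35 and 49 with HC-HA/PTX3. Its groups did not overlap, and its log2 fold change was -0.86 (adjusted p = 0.0307, edgeR with Benjamini-Hochberg adjustment, lower in 3 of 3 pairs). The call was lost without replicate 1 of either group and without vehicle replicate 2, with DESeq2, and with no replicate block. Pdilt, a testis isomerase, had at most 6 counts in a culture. Of the 6 male germ cell markers, 4 were near the limit of detection, with Tnp1 at 0 in all 6 cultures, Prm1, Prm2 and Acrv1 at 3 counts or fewer, and the list summing to 1.87, 2.03 and 2.16 CPM in vehicle and 2.10, 1.61 and 2.06 CPM in treated cultures. Ddx4, the most abundant of the 6, had 67, 65 and 102 counts with vehicle and 75, 50 and 68 with HC-HA/PTX3, so that its groups overlapped, and Dazl had at most 21 counts in a culture.

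Sensory neuron markers were high in all cultures, with 0 of 8 called. Of all tested genes, 3.32% were called higher and 5.38% lower, which is the share beside this and the following marker counts. Their summed level was 7088, 6034 and 6645 CPM in vehicle and 7507, 6604 and 7560 CPM in treated cultures, led by Tubb3. Markers of other cells were present. Fibroblast markers summed to 2138, 2152 and 895 CPM in vehicle and 1151, 1382 and 303 CPM in treated cultures, and 3 of 6 were called lower, with Col3a1 the most abundant. Satellite glia markers, led by Apoe, summed to 1947, 1101 and 472 CPM in vehicle and 1799, 1117 and 472 CPM in treated cultures, so that they differed more between replicate numbers than between treatments, and 0 of 6 were called. Of the macrophage markers 1 of 6, C1qa, was called lower, while 0 of 5 endothelial markers were called. In bulk RNA, fewer cells of a type and less RNA per cell cannot be told apart. The part of any cell type in the rise of the 4 genes was not tested.

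The genes whose log2 CPM ran most nearly in parallel with the 4 over the 6 cultures are given as a description, since genes that differ between the groups share such a pattern. Between 247 and 304 of 13575 genes had a Pearson r of at least 0.9 with each. For 2210409E12Rik the highest were Serpinb5 (r = 0.997), Dnase1l1, Bbip1, Vmac and Pou3f1, and the lowest Cnbp (r = -0.996), Cggbp1 and Rbm43. For Gm33309 they were Usp3 (0.994), Fdx1, Zbtb42, Angptl2 and Cisd3, and the lowest Bag4 (-0.999), Zfp358 and Zc4h2. Gm39663 ran closest to Nat6 (0.994), Anapc16, Akap8l, Fv1 and 1810058I24Rik, and opposite to Cryl1 (-0.995), Mt2, a metallothionein, and Vps54. Calr3 ran closest to Alcam (0.992), Misp, 2210409E12Rik (0.989), LOC101056014 and Eci1, and opposite to Zfp764 (-0.996), Adgrl1 and Bmp2k. Most of these genes changed far less than the 4, such as Alcam, an adhesion molecule of axons, with 214 ± 10.7 CPM in vehicle and 260 ± 9.54 CPM in treated cultures (SD over 3 cultures per group).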

How the data were processed

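Per the labels, total RNA of 3 vehicle and 3 HC-HA/PTX3 cultures was sequenced after ribosomal RNA removal. The authors deposited whole-number counts per gene. Their processing notes name HISAT2, featureCounts, Subread, limma and edgeR with mm10, without versions or strand setting, whereas per the file headers the counted alignments came from RNA STAR; which aligner was used was not settled. From these counts, genes were kept by edgeR's filterByExpr (18277 of 35976), scaled by TMM and fitted with edgeR 4.0.16 (glmQLFit, glmQLFTest; R 4.3.3) with replicate number and treatment as terms and Benjamini-Hochberg adjustment. The study used batch plus condition; the labels give no batch, and the replicate number was assumed to stand for it. The procedure was tested on simulated data. Log2 CPM used a prior count of 2. Intervals per pair are exact (Clopper-Pearson, 95%).

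Cultures were paired by the replicate number in the labels. Same-numbered cultures deviated together from their group means (r = 0.631, 0.536 and 0.774 across genes). The study calls its samples biological replicates, but neither it nor the labels say which animals each culture came from. With the block, p-values measure the spread between these cultures that is left after replicate number and treatment are fitted. No replicates agreed within sampling noise (chi-square per degree of freedom at least 31.4).

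Gene types, positions and sequences came from RefSeq (GRCm38.p6) and GENCODE M21; 93.2% of symbols matched RefSeq symbols or synonyms. Sequences were compared with blastn 2.17.0 (E at most 1e-5, at least 100 aligned bases between promoter windows). Alternatives used DESeq2 1.42.0, limma 3.58.1 and ComBat-seq (sva 3.50.0). The members and lists were chosen with earlier results of these data known. Genes were named as members, neighbours, list members, the 12 largest fitted rises and the 8 Gm or Rik genes with the largest smallest pair change (both at a mean of at least 1 log2 CPM), Scara5, and per member the 5 highest and 3 lowest correlations; exceptions are stated. Some genes of these lists are not reported here.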

Additional observations from a re-analysis of the deposited data

How the results depend on the processing

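Over 13 refits the fitted log2 fold changes of the 4 genes, which were selected on this contrast, ranged from 2.19 to 2.64 for 2210409E12Rik, 2.09 to 2.65 for Gm33309, 1.76 to 1.91 for Gm39663 and 1.76 to 1.82 for Calr3, and with raw library sizes or a prior count of 0.5 the pair changes ranged from 1.72 to 2.98. Leaving out a culture under the block drops its pair, so these ranges are no sign of stability. The counts of called genes depended on the fit. With no replicate block, edgeR called 0 genes higher and 0 lower, although 2089 had an unadjusted p below 0.05, and 0 neighbouring and 0 sperm genes. With the replicate block, DESeq2 called 360 higher and limma-voom 607. ComBat-seq on the replicate number followed by limma-trend called 1012 higher. Leaving out 1 culture at a time gave 248 to 783 genes called higher and 647 to 1227 lower. The neighbouring genes called were 0 with DESeq2 (which gave Gm15698 no adjusted p) and 0 with at least 10 counts required in every culture, which removed Gm15698; 2 with upper-quartile scaling, Gm15698 and Scpep1; and 1 to 3 with 1 culture left out. Folding genes called were 0 to 1 and sperm genes 0 to 1 with 1 culture left out, and DESeq2 called 0 sperm genes. The cause was not tested. The share called higher by class of symbol, compared across fits after seeing the data, was above that of other genes for all 3 provisional classes in 10 of 13 refits. The exceptions were the fit with no block, where all were at 0, and those without HC-HA/PTX3 replicate 1 or 3, where LOC genes fell below. Leaving out either culture of a replicate number drops the same pair, so that the 13 refits are not independent. Counts of 38 to 46 limit the precision for 2210409E12Rik in the vehicle cultures.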

Other observations

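Below the level at which the 4 genes lead, other little-studied genes had larger smallest pair changes from few counts. They were named after their values were seen and carry no test. A230052G05Rik had 2, 1 and 11 counts with vehicle and 51, 45 and 58 with HC-HA/PTX3, and its lowest pair change was 2.64 on the log2 scale. 4930550L24Rik had 5, 2 and 4 counts and then 47, 20 and 29, and Gm27204 had 4, 1 and 4 and then 31, 24 and 32. In each the groups did not overlap. However, each passed the low-count filter only through the treated cultures, so that nothing is read from this. Apob, the well-known apolipoprotein B gene, also lay below that level, with 31, 35 and 19 counts with vehicle and 115, 111 and 54 with HC-HA/PTX3.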
